A study of Mus musculus with 7 samples.

Results

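The Bex genes (brain expressed, X-linked) were followed in the heart apex of mice that lost Akt1 and Akt2 in cardiomyocytes. The family has 4 members here, Bex1, Bex2, Bex3 (also called Ngfrap1) and Bex4, among 22911 genes with a RefSeq symbol on the array. All non-control probes whose transcript accession maps to a member were taken, which gave 1 probe each for Bex1, Bex2 and Bex4 and a pair for Bex3, 5 probes in all. The family was selected on the array values of Bex1, which was among the largest rises between the groups compared below, so the members' own differences are given as a description and carry no test. Older symbols cross over in this family, since RefSeq lists "Bex1" as a synonym of Bex2 and "Bex4" as a synonym of Bex1, and the probes were therefore matched by accession and not by name.

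Bex proteins are small, largely unstructured adaptor proteins that are abundant in neurons and that act through the proteins they bind. Bex1 is known to rise in regenerating skeletal muscle and in failing hearts, where it has been described in a ribonucleoprotein complex on AU-rich inflammatory transcripts. Bex3 was found as a partner of the p75 neurotrophin receptor Ngfr in cell death signalling, Bex2 as a partner of the transcription cofactor Lmo2, and Bex4 as a tubulin-binding protein that is linked to the deacetylase Sirt2. The genes lie on the X chromosome among the related Tceal, Gprasp and Armcx genes.

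Total RNA of the heart apex of 7 male C57Bl/6 mice, 1 heart per array, was hybridised to 1-colour Agilent arrays. The 4 control mice were heterozygous for MHC-mercremer, a tamoxifen-inducible Cre recombinase driven by the cardiomyocyte-specific alpha myosin heavy chain promoter, and carried no floxed Akt allele by their labels. The 3 mice labelled DKO carried the same transgene and homozygous loxP-flanked alleles of Akt1 (exons 6 and 7) and Akt2 (exons 5 and 6). All 7 mice received 500 µg hydroxytamoxifen per day for 5 days at an age of 3 months and were sampled 10 days after induction, without a further cardiac treatment. Cre and tamoxifen are thus shared by both groups. Deletion is limited to cardiomyocytes, whereas the RNA came from all cells of the apex, so that a change in the number of cells of a type and a change in RNA per cell cannot be told apart.

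All arrays were on 1 slide read in 1 scan, with 53.0% to 57.6% of spots well above background and no saturated spot. The Akt2 probe A_51_P408044 read 10.20, 10.13, 10.21 and 10.25 on the normalized log2 scale in control replicates 1 to 4 and 7.90, 8.08 and 7.75 in DKO replicates 1 to 3 (limma adjusted p = 0.000295), with no overlap. The other Akt2 probes were also lower without overlap. A_55_P2066518 differed by -2.05 ± 0.07 (limma adjusted p = 0.000203). A_55_P2066523 differed by -0.68 ± 0.12 (limma adjusted p = 0.0335) and kept its call in 2 of 8 alternatives. The Akt1 probe A_51_P237553 read 14.46, 14.51, 14.40 and 14.55 in control hearts and 14.68, 14.60 and 14.66 in DKO hearts (limma adjusted p = 0.199). The Akt1 probe A_52_P418014 differed by 0.47 ± 0.16 (limma adjusted p = 0.139), with overlap. Whether the Akt1 probes lie in the floxed exons was not tested, so they do not check the deletion of Akt1. The 11 cardiomyocyte markers, among them Myh6 and Tnnt2, were all tested, and their summed log2 level was 20.98 to 21.07 in control hearts and 21.05 to 21.17 in DKO hearts. None of the 11 passed limma at an adjusted p of 0.05, and 3 had an unadjusted p below 0.05, against 25.5% of all tested genes. With trend and robust variances 2 of the 11 passed.

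The promoters of the members are shown first because pairs of them are near copies, which sets the values of the genes side by side with almost the same upstream sequence. Each run holds 250 bases before and 50 bases after the annotated gene start, 5′ to 3′ in the direction of the gene, from RefSeq on GRCm38.p6, and the capitals mark the E-box CACGTG, a palindromic motif that reads the same on both strands. The windows are chrX:136215464-136215763 on the minus strand for Bex1, chrX:136138746-136139045 on the plus strand for Bex4, chrX:136270003-136270302 on the plus strand for Bex3, chrX:136068187-136068486 on the minus strand for Bex2 and chrX:136223791-136224090 on the plus strand for the neighbour Tceal7.
Bex1: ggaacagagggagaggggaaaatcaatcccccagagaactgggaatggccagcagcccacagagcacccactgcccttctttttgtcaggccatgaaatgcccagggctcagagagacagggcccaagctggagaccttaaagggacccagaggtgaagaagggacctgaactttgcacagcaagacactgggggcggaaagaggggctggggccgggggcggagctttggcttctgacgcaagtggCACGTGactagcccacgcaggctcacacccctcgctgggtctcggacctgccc
Bex4: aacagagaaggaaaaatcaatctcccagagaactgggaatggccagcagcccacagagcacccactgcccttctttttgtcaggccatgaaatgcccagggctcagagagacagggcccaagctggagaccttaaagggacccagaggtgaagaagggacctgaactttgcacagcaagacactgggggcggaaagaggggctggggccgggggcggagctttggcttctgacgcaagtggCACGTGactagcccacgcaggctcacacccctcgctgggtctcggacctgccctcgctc
Bex3: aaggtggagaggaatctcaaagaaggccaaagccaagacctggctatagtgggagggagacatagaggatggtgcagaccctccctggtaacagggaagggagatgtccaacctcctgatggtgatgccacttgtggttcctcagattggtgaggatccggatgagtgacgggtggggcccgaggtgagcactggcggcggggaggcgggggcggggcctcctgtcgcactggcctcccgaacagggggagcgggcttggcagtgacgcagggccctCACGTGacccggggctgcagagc
Bex2: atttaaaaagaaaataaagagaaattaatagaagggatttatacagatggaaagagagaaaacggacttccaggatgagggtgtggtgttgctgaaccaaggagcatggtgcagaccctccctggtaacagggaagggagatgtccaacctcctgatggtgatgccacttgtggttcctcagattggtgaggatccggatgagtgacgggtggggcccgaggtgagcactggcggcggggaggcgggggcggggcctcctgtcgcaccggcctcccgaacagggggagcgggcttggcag
Tceal7: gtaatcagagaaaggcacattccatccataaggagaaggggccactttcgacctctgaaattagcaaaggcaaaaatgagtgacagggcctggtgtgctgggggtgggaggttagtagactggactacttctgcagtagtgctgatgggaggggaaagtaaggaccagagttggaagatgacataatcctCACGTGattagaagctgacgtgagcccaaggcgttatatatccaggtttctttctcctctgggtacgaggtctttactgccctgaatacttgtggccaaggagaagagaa

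The Bex1 and Bex4 promoters were 95.1% identical (291 of 306 aligned columns) and shared an unbroken run of 271 bases that includes the E-box, although the genes are read from opposite strands. The Bex2 and Bex3 promoters were 71.3% identical and shared a run of 162 bases. Across these pairs the likeness ended. Bex1 was 51.1% identical to Bex2, 54.1% to Bex3 and 49.9% to Tceal7, with no shared run over 9 bases. The E-box starts 3 bases before the annotated start in Bex1, 9 before it in Bex4 and 60 before it in Tceal7, at position 28 after the start in Bex3, and it is not in the Bex2 window. It also starts 15 bases before a start of the neighbour Tceal5 and at position 18 after that of Tceal8. Neither Tceal5 nor Tceal8 passed limma below, and whether the E-box bears on any of the differences was not tested. Of the 32817 mouse promoter windows of this length, 7.15% hold CACGTG. A FoxO core of the letters GTAAACA, searched on both strands because FoxO factors are restrained by Akt, was in none of the 5 windows and in 3.65% of all windows. CATTCC, the letters of the M-CAT motif of muscle promoters, was on either strand of Bex1, Bex4 and Tceal7, also of Tceal8, and in 14.7% of all windows. TATAAA was in the Bex2 window alone of the 5, on the strand opposite to the gene, and on either strand in 13.6% of all windows. CpG counts were 8 in Bex1, 9 in Bex4, 12 in Bex2 and 13 in Bex3, against a median of 7 over all windows. A motif match describes letters and does not show that a factor binds.

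Bex1 stood far above its control level in the hearts labelled DKO. Its probe A_55_P2031021 had a normalized log2 signal of 8.46, 8.35, 8.86 and 8.21 in control replicates 1 to 4 and of 10.85, 10.49 and 10.93 in DKO replicates 1 to 3. All 3 DKO hearts lay above all 4 control hearts, and the lowest DKO heart was 1.63 above the highest control heart. This gap was wider than the range of the control hearts (0.65) and of the DKO hearts (0.44). The group means were 8.47 ± 0.28 (SD, n = 4) and 10.76 ± 0.24 (SD, n = 3), a log2 difference of 2.29 ± 0.18 (SE) or 4.88-fold. By size this was the rise in place 7 of 23681 tested genes and in place 6 among those with a symbol.

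The Bex1 separation was already present in the scanner's background-subtracted signal before scaling between arrays. The processed signal was 332.5, 324.9, 452.3 and 343.8 in control hearts and 1671, 1361 and 2145 in DKO hearts, each with a scanner error near 10.0%. These errors cover the reading of a spot and not the spread between hearts. The difference was 2.42 within slide row 1 and 2.32 within row 2. Row 1 held control replicates 1, 3 and 4 with DKO replicate 3, and row 2 held control replicate 2 with DKO replicates 1 and 2. Each of these differences therefore rests on 1 heart on 1 side. With any 1 heart left out the Bex1 difference lay between 2.20 and 2.42.

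**Figure D1:**
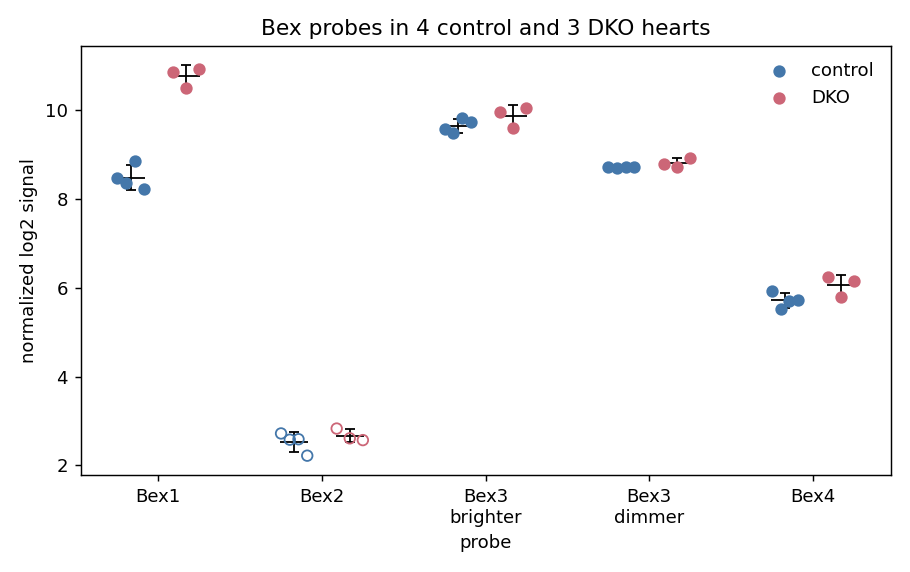
Normalized log2 signal (vertical axis) of the 5 Bex probes (horizontal axis) in control hearts (blue, n = 4) and DKO hearts (red, n = 3). Points are hearts, black bars are means with SD, and open points are spots not well above background; heights are not comparable between probes. The Bex1 groups are apart by 1.63 between the nearest hearts, and the groups of the other probes overlap.

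Bex4, whose promoter is nearly that of Bex1, moved little. Its probe A_55_P1967683 read 5.93, 5.51, 5.70 and 5.72 in control hearts and 6.23, 5.78 and 6.14 in DKO hearts. DKO replicate 2 lay below control replicate 1, so the groups overlapped, while the other DKO hearts lay above all control hearts. The means of 5.72 ± 0.17 (SD, n = 4) and 6.05 ± 0.24 (SD, n = 3) differed by 0.33 ± 0.14 (SE), or 1.26-fold. The spot was dim, with a processed signal of 45.4 to 61.4 in control hearts and 52.1 to 77.4 in DKO hearts and a scanner error of 12.4% to 15.0%, although it was well above background on all 7 arrays. With the normexp background correction and scaling to the 75th percentile the difference was 0.12, and its sign was positive under all 21 alternative settings.

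Bex3 was measured by 2 probes that both gave small differences. The brighter, A_51_P408155, read 9.56, 9.47, 9.81 and 9.73 in control hearts and 9.96, 9.59 and 10.05 in DKO hearts. DKO replicate 2 lay inside the control range and the other DKO hearts above it. The means of 9.64 ± 0.16 (SD, n = 4) and 9.86 ± 0.24 (SD, n = 3) differed by 0.22 ± 0.14 (SE), or 1.17-fold. The dimmer probe, A_55_P2149615, read 8.72, 8.70, 8.71 and 8.72 in control hearts and 8.78, 8.71 and 8.92 in DKO hearts, a difference of 0.09 ± 0.08 (SE). Its control hearts were within a few hundredths of each other, and DKO replicate 2 again fell among them.

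Bex2 was not well above background on any of the 7 arrays. Its probe A_51_P237668 read 2.72, 2.58, 2.59 and 2.22 in control hearts and 2.83, 2.61 and 2.57 in DKO hearts. Its processed signal was 5.4 to 6.5, whereas the dimmest single spots called well above background read 19.5 to 24.9, depending on the array. No fold is therefore given for Bex2. The gene is known as a close paralog of Bex1, and its probe stayed not well above background on the DKO arrays where the Bex1 probe was bright. The probe sequences were not used here, and whether a probe also binds the transcript of a paralog was not tested.

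The family as a whole therefore had 3 of 4 members measured and 1 of these 3, Bex1, with all DKO hearts above all control hearts. Over all tested genes, 13.2% had all DKO hearts above all control hearts, and 4.7% passed limma at an adjusted p below 0.05 in either direction. As Bex1 was chosen for its difference, these shares are given as background only. The median log2 difference over all tested genes was -0.02, and 8.34% of genes had a larger difference than Bex4 and 16.2% a larger one than Bex3.

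**Figure D2:**
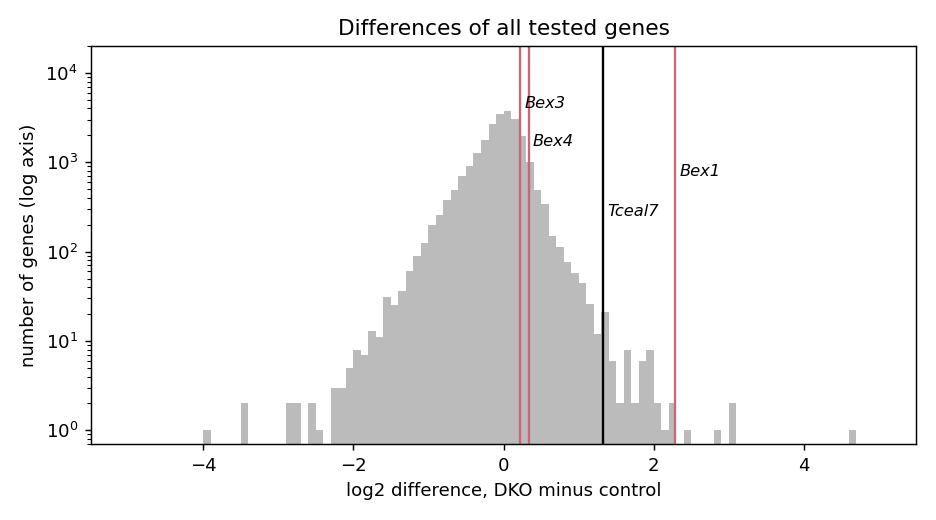
Number of genes (vertical log axis) by log2 difference, DKO minus control (horizontal axis, steps of 0.1), for all 23681 tested genes. Lines mark Bex1 at 2.29, Bex3 at 0.22, Bex4 at 0.33 and the neighbour Tceal7 at 1.32; Bex1 lies in the thin right tail and Bex3 and Bex4 lie in the body of the distribution.

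DKO replicate 2 was the lowest of the DKO hearts in all 4 measured member probes. The deviations of the hearts from their group means correlated between member probes at r = 0.46 to 0.70 over 7 arrays, a description over values that share the arrays and their scaling. Bex1 and the brighter Bex3 probe gave r = 0.69, Bex1 and Bex4 gave r = 0.46.

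The neighbours of Bex1 on the X chromosome were then examined. Their values were not used to choose the family. The list of Bex relatives, which overlaps them, was chosen with earlier results of these data known. In RefSeq order the tested genes run Bex4, Tceal8, Tceal5, Bex1, Tceal7, Tceal9, Bex3, Tceal3 and Tceal1. Tceal7, the tested gene next to Bex1 on 1 side, rose in the DKO hearts. It read 5.75, 6.08, 6.36 and 6.03 in control hearts and 7.51, 7.11 and 7.50 in DKO hearts, without overlap. The means of 6.06 ± 0.25 (SD, n = 4) and 7.37 ± 0.22 (SD, n = 3) differed by 1.32 ± 0.17 (SE), or 2.50-fold (limma adjusted p = 0.0124 over all genes). Tceal7 belongs to the transcription elongation factor A-like genes, relatives of the Bex genes.

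With 1 heart left out in turn, Tceal7 passed in 5 of 7 fits and missed the threshold without DKO replicate 1 (adjusted p = 0.0595) and without control replicate 4 (adjusted p = 0.0536). Its adjusted p lay between 0.00383 and 0.134 over all 19 alternatives, and the difference was positive in all 19, with its lowest value of 0.82 under the normexp correction. The deviations of Tceal7 and Bex1 from their group means gave r = 0.73 over 7 arrays, and by its whole profile Tceal7 was in place 17 of 14721 named genes nearest to Bex1 (r = 0.978).

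On the other side of Bex1, Tceal5 read 7.02, 6.50, 7.11 and 6.71 in control hearts and 6.87, 6.58 and 6.83 in DKO hearts. The groups overlapped and the difference was -0.07 ± 0.16 (SE; limma adjusted p = 0.81). Tceal9, which lies between Tceal7 and Bex3, differed by 0.17 ± 0.09 (limma adjusted p = 0.258). Tceal8, next to Bex4, differed by 0.15 ± 0.37 (limma adjusted p = 0.83), and Arxes2 on the other side of Bex4 by -0.45 ± 0.22 (limma adjusted p = 0.245).

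Tceal3, next to Bex3, read 9.98, 5.56, 6.06 and 5.77 in control hearts and 6.10, 5.87 and 6.44 in DKO hearts. Control replicate 1 stood apart from the other 6 hearts, and the difference of -0.71 ± 1.05 (limma adjusted p = 0.703) became 0.34 without it (limma adjusted p = 0.318). Control replicate 1 also stood apart in Tceal8, at 6.00 against 7.18 to 7.35 in the other control hearts. Without control replicate 1 the Tceal8 difference was -0.17, so its sign rests on that heart, while Tceal7 stayed at 1.22 (limma adjusted p = 0.0236).

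Among the 38 tested neighbours that are not members, up to 20 places to each side of Bex1, Tceal7 was the 1 gene that passed limma. Over all tested genes 4.7% passed. The smallest adjusted p of the others was 0.0584, of Rab9b at -0.43 ± 0.10. Differences of the other neighbours ran from -1.07 in Nxf2 to 0.38 in Armcx4, with a median of 0.08 over the 38, and 21 of them were above 0. The upper end rests on control replicate 1, which read 6.03 in Armcx4 against 7.86 to 8.03 in the other control hearts, and without it the Armcx4 difference was -0.10. All DKO hearts lay above all control hearts in 4 of the 38 and below them in 2, against 13.2% and 12.5% of all tested genes.

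**Figure D3:**
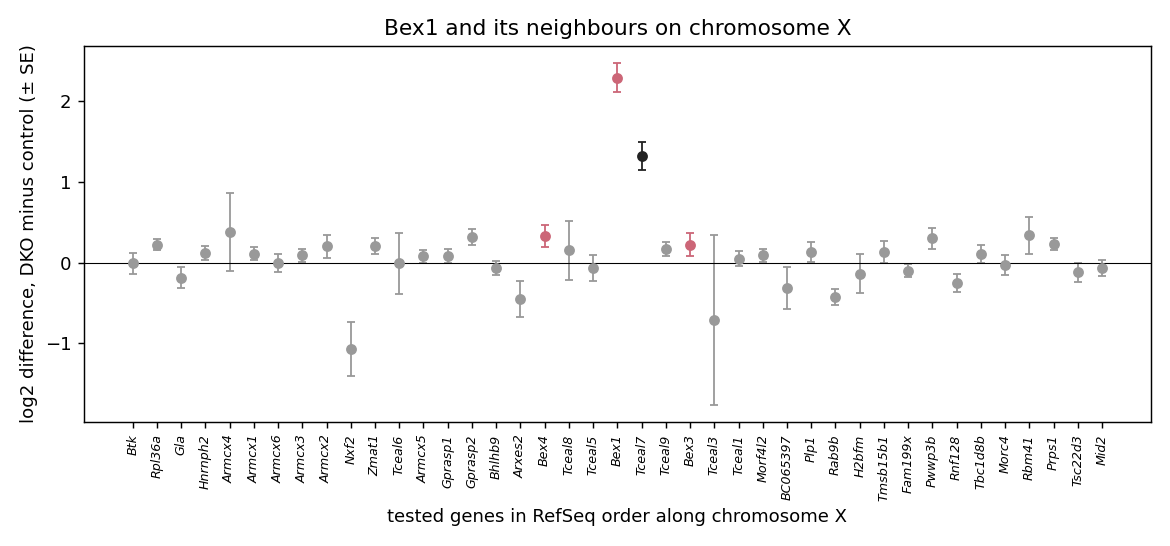
Log2 difference, DKO minus control, with SE (vertical axis) of the tested genes within 20 places of Bex1 in RefSeq order on chromosome X (horizontal axis). Red points are Bex members, the black point is Tceal7, which passed limma, and grey points are genes that did not; Bex1 at 2.29 and Tceal7 at 1.32 are adjacent and stand above the rest, and the wide bar of Tceal3 comes from control replicate 1.

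Of 17 relatives of the Bex genes outside the members (the Tceal, Gprasp and Armcx genes, Bhlhb9 and Bex6), 16 were tested. By limma 1 rose and none fell (6.25% called, against 4.7% of all genes). An unadjusted p below 0.05 was found for 2, against 25.5% of all genes. The riser was Tceal7. The median difference of the 16 was 0.08 and 11 were above 0. Gprasp2, a G protein-coupled receptor sorting protein, had the next smallest p and read 7.66, 7.40, 7.47 and 7.37 in control hearts and 7.84, 7.67 and 7.87 in DKO hearts, a difference of 0.32 ± 0.10 (limma adjusted p = 0.108). Its lowest DKO heart was 0.02 above its highest control heart. Bex6 was not well above background on any array.

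Among partners and pathways of the Bex proteins, the p75 receptor Ngfr itself was higher in the DKO hearts. Ngfr, the receptor that Bex3 binds, read 6.93, 7.11, 7.06 and 7.10 in control hearts and 7.49, 7.38 and 7.52 in DKO hearts, without overlap. It rose by 0.41 ± 0.08 on the log2 scale, or 1.33-fold (limma adjusted p = 0.0368). It passed in none of the 7 fits with 1 heart left out, where its adjusted p reached 0.119 without DKO replicate 1, and its sign was positive in all 19 alternatives. It passed in 4 of these 19, and missed the threshold under quantile normalization (limma adjusted p = 0.0615), with the authors' values (0.0623), under the normexp settings (0.0865 and 0.0753) and with trend and robust variances (0.0512). Ntrk2, the receptor of the neurotrophin Bdnf, read 7.37, 7.52, 7.53 and 7.35 in control hearts and 7.84, 7.84 and 7.90 in DKO hearts. It rose by 0.41 ± 0.08 (limma adjusted p = 0.0363) and passed in 1 of the 7 fits with a heart left out, with an adjusted p of up to 0.108 without DKO replicate 3.

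The other called genes of p75 and neurotrophin signalling were lower in the DKO hearts. Rtn4r, the Nogo receptor that signals together with p75, read 7.40, 7.47, 6.41 and 7.18 in control hearts and 5.69, 5.26 and 4.58 in DKO hearts. It fell by 1.94 ± 0.34 on the log2 scale (limma adjusted p = 0.0294) and passed in 2 of the 7 fits with a heart left out. As it was well above background in 2 of the 3 DKO hearts, the size is poorly fixed: under the normexp settings the difference was -1.01 and -0.97. The neurotrophin gene Ntf5 read 5.39, 4.96, 5.32 and 5.15 in control hearts and 4.06, 4.53 and 3.72 in DKO hearts. Its difference was -1.10 ± 0.20 (limma adjusted p = 0.0321), with 1 of the 3 DKO hearts well above background, and it passed in 2 of the 7 such fits. Under the normexp settings the Ntf5 difference was -0.32 and -0.30 and the call was lost (limma adjusted p = 0.158 and 0.0957). Neither gene had overlapping groups. In all, 2 of the 24 tested genes of this list rose and 2 fell (16.7% called, against 4.7% of all genes), 10 had an unadjusted p below 0.05, against 25.5% of all genes, and the median difference was 0.10.

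Of 10 genes for binding partners of Bex proteins 9 were tested, and Ngfr was the 1 that passed (11.1% called, against 4.7% of all genes). An unadjusted p below 0.05 was found for 4 of the 9, against 25.5% of all genes. The median difference of the 9 was 0.10, with 5 above 0 and 4 below.

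Transcripts with AU-rich elements and their binding proteins, the group to which Bex1 has been linked in failing hearts, held 22 tested genes of 32. None rose by limma and 2 fell, against 4.7% of all genes called, 5 had an unadjusted p below 0.05, against 25.5% of all genes, and the median difference was -0.01. Ccl12, a monocyte chemokine, read 8.28, 8.59, 8.31 and 8.42 in control hearts and 7.49, 7.38 and 7.64 in DKO hearts. It fell by 0.90 ± 0.11 (limma adjusted p = 0.0106) and passed in 6 of the 7 fits with a heart left out, missing without DKO replicate 1 (adjusted p = 0.0536). Tia1, an RNA-binding protein of stress granules, fell by 0.52 ± 0.10 (limma adjusted p = 0.0367) from 9.83 ± 0.10 (SD, n = 4) to 9.31 ± 0.15 (SD, n = 3), and passed in none of those 7 fits. Il1a, Il6, Lif, Ccl3, Cxcl2, Cxcl3, Ptgs2, Ifng, Csf2 and Csf3 were not well above background on any array.

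Muscle regeneration genes were examined because Bex1 is known from regenerating muscle. Of 29 genes 18 were tested, none rose by limma and 1 fell (5.56% called, against 4.7% of all genes), and 7 had an unadjusted p below 0.05, against 25.5% of all genes. The median difference of the 18 was 0.03. Notch1, a receptor that holds muscle progenitors undifferentiated, read 11.62, 11.51, 12.24 and 11.60 in control hearts and 10.84, 10.59 and 10.92 in DKO hearts. It fell by 0.96 ± 0.19 (limma adjusted p = 0.0399), passed in 2 of the 7 fits with a heart left out, and its control replicate 3 was high. The difference without that heart was -0.79. Des, the muscle intermediate filament desmin, differed by 0.46 ± 0.12 (limma adjusted p = 0.0763). The satellite cell and myoblast genes Pax7, Myf5 and Myod1 were not well above background on any array.

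Markers of cells that could bring in Bex RNA were set beside the rise of Bex1. Of 21 autonomic neuron markers 13 were tested and 1 fell by limma (7.69% called, against 4.7% of all genes). Their summed log2 level was 14.43 to 14.59 in control hearts and lower, 13.86 to 14.16, in DKO hearts. The gene that fell was Dbh, which makes noradrenaline, at -1.79 ± 0.13 (limma adjusted p = 0.00374). Prph, Slc6a2, Npy, Slc5a7 and Chrna3 were not well above background on any array. The markers did not move as 1 group. Snap25, a synaptic protein and a bright marker in this sum, read 13.71 to 13.97 in control hearts and 13.03 to 13.48 in DKO hearts, a difference of -0.51 ± 0.13 (limma adjusted p = 0.072). Elavl4, a neuronal RNA-binding protein, differed by 0.45 ± 0.10 (limma adjusted p = 0.0503) and Stmn2, a neuronal microtubule regulator, by 0.40 ± 0.10 (limma adjusted p = 0.072), both higher in all DKO hearts than in all control hearts. In all, 5 of the 13 tested markers were above 0, and with trend and robust variances 4 were called. Of the 13, 6 had an unadjusted p below 0.05, against 25.5% of all genes. The part of neuron RNA in the Bex1 rise was not tested.

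Of 12 Schwann cell markers 9 were tested and none passed limma, against 4.7% of all genes. An unadjusted p below 0.05 was found for 3, against 25.5% of all genes. Differences were above 0 in 7 markers and below 0 in 2. Sox10 (0.30 ± 0.08), S100b (0.37 ± 0.12) and Kcna1 (0.40 ± 0.14) were higher in all DKO hearts than in all control hearts. The summed level was 12.78 to 12.93 in control hearts and 12.86 to 12.98 in DKO hearts. Its brightest marker, Pmp22, differed by 0.02 ± 0.08. Of the 11 skeletal muscle markers 7 were tested, and their summed level was 12.61 to 13.00 in control hearts and 12.96 to 13.20 in DKO hearts. Casq1, the calcium buffer of fast fibres, fell by 1.25 ± 0.24 (limma adjusted p = 0.0386) but passed in none of the 7 fits with a heart left out. Mybpc2, a myosin-binding protein of fast muscle, differed by 0.56 ± 0.13 (limma adjusted p = 0.057). The calcium pump Atp2a1, the brightest tested marker in this sum, differed by 0.32 ± 0.13 (limma adjusted p = 0.17). Both were higher in all DKO hearts than in all control hearts. Tnni2, another of these markers, was lower in all DKO hearts, at -0.39 ± 0.15 (limma adjusted p = 0.163). Of the 7 tested markers 3 were above 0, and 14.3% were called, against 4.7% of all genes. An unadjusted p below 0.05 was found for 4 of the 7, against 25.5% of all genes. The defining genes Myh1, Myh2 and Actn3 were not well above background on any array.

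Markers of non-muscle heart cells gave no call by limma, against 4.7% of all genes, while with trend and robust variances 1 fibroblast and 1 endothelial marker passed. The summed level of 10 fibroblast markers was 16.88 to 16.95 in control hearts and 16.94 to 17.18 in DKO hearts, with 2 markers at an unadjusted p below 0.05, against 25.5% of all genes. That of 10 endothelial markers was 15.90 to 16.15 in control hearts and 16.18 to 16.20 in DKO hearts, with 2 such markers and all 10 differences above 0, against 46.9% of all genes above 0. That of 10 macrophage markers was 14.25 to 14.43 in control hearts and 14.20 to 14.60 in DKO hearts, with 1 such marker. The endothelial sums did not overlap between the groups, as the Bex1 values did not, and neither did the neuron sums, which were lower in DKO hearts. Of all tested single genes, 13.2% were higher in DKO hearts without overlap. The brightest endothelial marker, Egfl7, differed by 0.05 ± 0.13 with overlap. The part of endothelial RNA in the Bex1 rise was not tested.

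The genes whose profile over the 7 hearts was nearest to that of Bex1 were Myh7, Ccn2, Rnase1, Upb1, Fgf6, Neil2, Rbp4 and Angptl4, by root mean square distance of log2 profiles centred on their mean, over 14721 named genes. Myh7, the slow myosin heavy chain of the fetal ventricle and of stressed adult heart, was nearest, at a distance of 0.26 and r = 0.974. Ccn2, connective tissue growth factor, followed at 0.28 and r = 0.977. Upb1, a pyrimidine-degrading enzyme, had the shape most like Bex1 of the 8 by correlation, r = 0.998, at a smaller difference of 1.63 ± 0.15. As the genes were picked for likeness to a profile that separates the groups, they separate them by construction.

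Myh7 read 16.40, 16.05, 16.81 and 16.14 in control hearts and 18.66, 18.57 and 18.15 in DKO hearts. Its DKO order differed from that of Bex1, since DKO replicate 3 was its lowest DKO heart and the highest for Bex1, while control replicate 3 was the highest control heart for both genes. Angptl4, a secreted lipase inhibitor, read 9.46, 9.07, 9.17 and 9.57 in control hearts and 12.30, 11.54 and 11.47 in DKO hearts, so its highest heart was DKO replicate 1. Under quantile normalization 7 of the 8 genes were again among the 8 nearest, all but Rbp4.

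**Figure D4:**
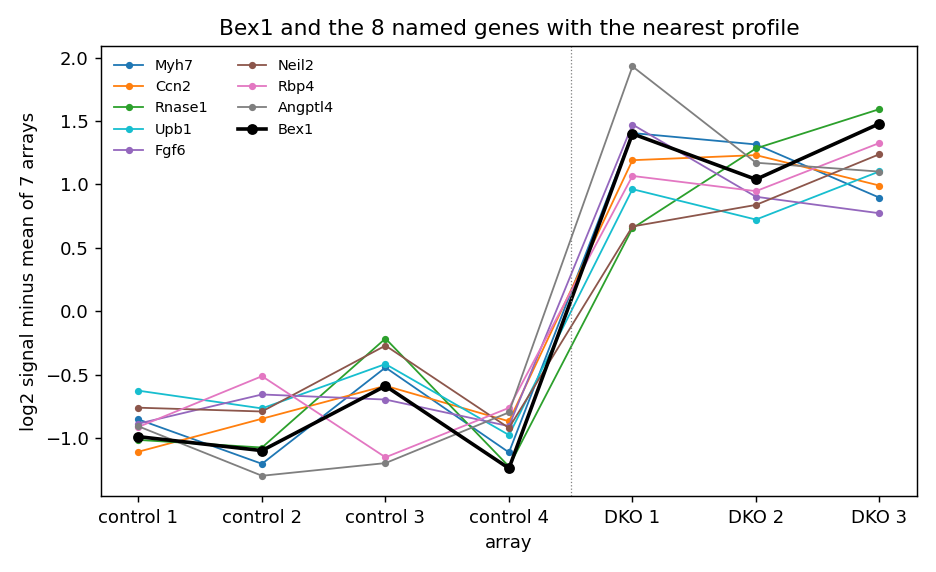
Log2 signal minus the mean of the 7 arrays (vertical axis) in each heart (horizontal axis, control hearts left of the dotted line) for Bex1 (black) and the 8 named genes with the nearest profile. Distances run from 0.26 for Myh7 to 0.39 for Angptl4, and all 9 lines step up between the groups because the genes were picked for that likeness.

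The profiles nearest to Bex3 and Bex4 had small differences and were less fixed. Gm13889, Pus7l and Zfp87 were nearest to the brighter Bex3 probe at 0.05, 0.06 and 0.06, and 1 of the 3 was again nearest under quantile normalization. Rbm45, Cxcl1 and Rtp3 were nearest to Bex4, each at 0.08, and 0 of the 3 were so under quantile normalization. None of these 6 genes was among the 8 nearest to Bex1.

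Across the alternative ways of processing the arrays, the difference of Bex1 lay between 2.06 and 2.42 and that of Bex4 between 0.12 and 0.49. The brighter Bex3 probe lay between 0.13 and 0.36 and the dimmer between 0.03 and 0.20. The order of Bex1, then Tceal7, then the other members held in each setting in which all were computed.

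**Figure D5:**
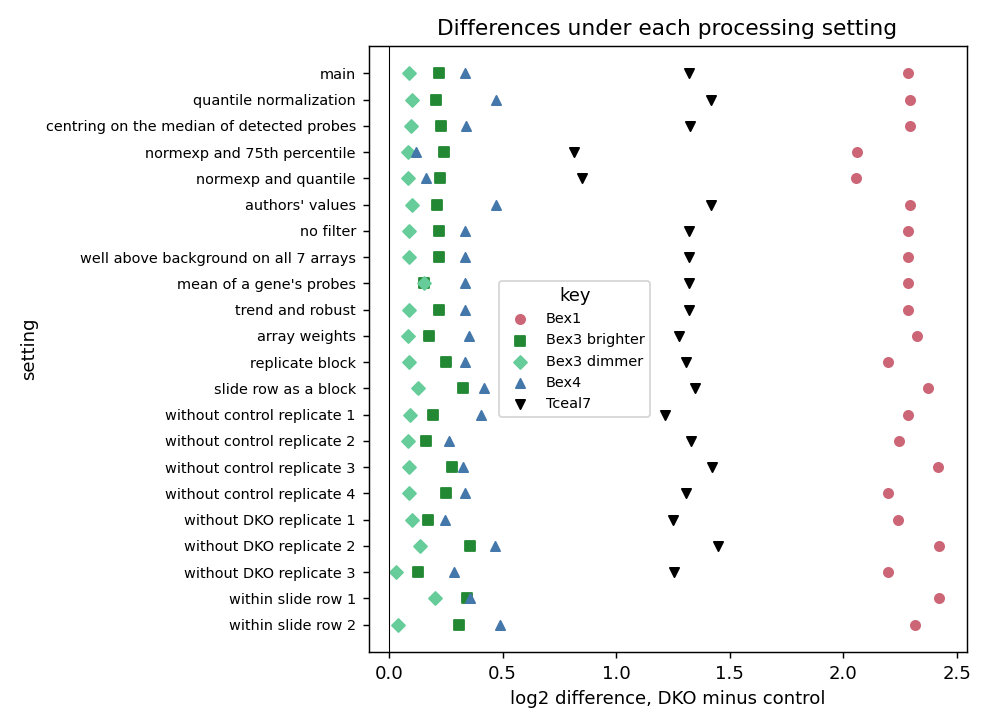
Log2 difference, DKO minus control (horizontal axis), of the 4 measured Bex probes and Tceal7 under each processing setting (vertical axis). Bex1 stays between 2.06 and 2.42 and the Bex3 and Bex4 probes between 0.03 and 0.49, and Tceal7 lies between them in each setting where it was fitted.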

How the data were processed

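The authors scanned the arrays (1-colour Agilent, Cy3) with Feature Extraction 12.0.3.1 (probe build mm9), per the file headers. Each deposited file lists 62976 spots, with background-subtracted processed signals, median signals and local backgrounds as intensity on a linear scale, and flags for outliers, saturation and signals well above background (a 0 or 1 score), as the file headers name them. A log2 table from the authors, centred per probe, served as an alternative.

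Control and outlier spots were left out, log2 processed signals were centred on each array's 75th percentile (mean 9.14 added back), and probes well above background on at least 3 of 7 arrays were kept, the brightest probe standing for a gene. Of 56605 probes 32994 matched a RefSeq symbol of GRCm38.p6. limma 3.58.1 in R 4.3.3 was fitted to 23681 genes with Benjamini-Hochberg adjustment over all of them (2-sided, threshold 0.05); 1114 genes passed. SEs are from this fit. Folds are 2 to the power of the log2 difference. The fit was tested on simulated data. With 7 arrays, their number limits the precision.

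The members and lists were chosen with earlier results of these data known. Named genes are all members, Akt1 and Akt2, called list genes (or the 2 with the smallest p), the nearest tested X neighbours, and the 8 or 3 nearest profiles. A few genes that fall under this rule are not reported here. Snap25, Elavl4, Stmn2, Kcna1, Pmp22, Mybpc2, Atp2a1, Tnni2, Egfl7, Rab9b, Nxf2 and Armcx4 were named after their values were seen. Replicate numbers did not pair the hearts: deviations of same-numbered hearts correlated at 0.129, 0.007 and 0.033. Promoters were compared by global alignment (Biopython 1.88). Alternatives covered scaling, normexp (offset 50, on median spot signals), filters, probe choice, variance model, array weights, blocks and left-out hearts.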

Additional observations from a re-analysis of the deposited data

Results flagged for a closer look

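In 96 sets of 4 control values, the highest or lowest control heart stood apart from the other 3 in 8 by Dixon's criterion at the 95% level; about 1 in 20 such sets is marked by chance. Among relatives and neighbours of the Bex genes, control replicate 1 stood apart in Tceal3 (9.98), Tceal8 (6.00), Armcx4 (6.03) and Morc4 (8.03), and control replicate 2 in Armcx3 (8.78). In the gene lists control replicate 3 stood apart in Notch1 (12.24), control replicate 2 in C1qa (11.2) and in the summed level of the AU-rich inflammatory transcripts (15.69). No measured Bex probe was among the 8.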

How the results depend on the processing

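Bex1, the brighter Bex3 probe, the dimmer Bex3 probe and Bex4 kept a positive difference in all 21 alternatives, within the ranges given above. The filter and variance settings left these differences unchanged, and the replicate block repeated the values without control replicate 4. The alternatives are thus not separate checks, here or for Tceal7 and Ngfr. Bex4 moved to 0.12 under normexp with the 75th percentile, and the dimmer Bex3 probe to 0.20 within slide row 1. The number of genes called, 1114, was 617 under normexp with the 75th percentile, 716 under normexp with quantile normalization, 121 without a filter, 2028 with trend and robust variances, 1680 with array weights and 288 with slide row as a block. It was 160 to 1127 with 1 heart left out, lowest without DKO replicate 1. With the replicate block 1 gene was called, and the lists of relatives, p75 signalling, binding partners, AU-rich transcripts and muscle regeneration had 0 each. Without a filter these 5 lists also had 0. Under both normexp settings p75 signalling had 2 calls and binding partners 0, and muscle regeneration had 2 under normexp with the 75th percentile. Slide row as a block left 1 in p75 signalling, 1 in AU-rich transcripts, and 0 in binding partners and muscle regeneration. Trend and robust variances and array weights gave 2 in binding partners and 2 in muscle regeneration, and the mean of a gene's probes gave 2 in binding partners. With 1 heart left out the counts were 0 to 3 in p75 signalling, 0 to 0 in binding partners, 0 to 1 in AU-rich transcripts, 0 to 1 in muscle regeneration and 0 to 1 in relatives. No scaling moved the median of all genes by more than 0.1. Bex2 and other probes not above background have only a bound here, and Bex4 is dim. The cause of these changes was not tested.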
